A study of Mus musculus with 16 samples.

Results

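The UV-RIP of Sox2 comprised 8 of the 16 libraries of the series, 4 from RNA recovered with a Sox2 antibody (IP) and 4 from the input lysates. The libraries were chosen by their labels, replicates 3, 4, 5 and 6 of each kind, and every IP was paired with the input of the same number. The cells were male mouse embryonic stem cells (mESCs), grown on gelatin in medium with LIF and the inhibitors PD0325901 and CHIR99021, which holds the cells in the naive pluripotent state. The plates were exposed to ultraviolet light, the cells were lysed and sonicated, a part of the cleared lysate was set aside as input, and Sox2 was captured from the rest on protein G beads. The other 8 libraries came from mESCs fixed with formaldehyde (fRIP) and handled in the same way. IP and input shared the cell line, medium and crosslinker, and differed in the antibody step. No library with a control antibody or with beads alone was analysed here, so a ratio of IP to input holds whatever RNA the antibody and beads retained.

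Sox2 is an HMG-box transcription factor that maintains pluripotency together with Oct4. The HMG box inserts into the minor groove of DNA and bends it, and HMG-box proteins can also bind structured RNA. Ultraviolet light joins protein to nucleic acid only where they touch, whereas formaldehyde also links proteins to each other, so UV-RIP is the more selective of the assays for direct contacts. The comparison of IP with input asked which transcripts were over- or under-represented with Sox2, and the values below describe which gene classes and transcript types they belonged to.

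Each library held between 12456298 and 17281596 molecules counted by their unique molecular identifiers (UMIs), over 53379 genes. Sox2 itself, the captured protein's own gene, was listed at 0 UMIs in all 16 libraries. Its gene body (chr3:34650405-34652461, plus strand, GRCm38) lies wholly within that of the long non-coding RNA Sox2ot, a gene named here for its position, which had between 55.9 and 68.7 CPM (UMIs scaled to the same total in each library) in every UV library, so Sox2 mRNA gave no check of the samples. The other 9 of 10 naive stem cell markers were all detected, and the 10 summed to between 2230 and 2390 CPM in the inputs and 2010 to 2130 CPM in the IPs. The 10 fibroblast markers summed to between 3.20 and 4.01 CPM in the inputs, with Col3a1, Fap, S100a4, Dcn and Lum at 0. In IP, replicates 3 and 4 differed little from each other, as did 5 and 6, whereas the pairs differed more between them (2.55 and 2.78 against 6.92 to 8.33 times the counting variance), and the counts over all genes are given for each pair of plates. What set these plates apart is not given in the labels. By the methods of the study each number is a culture plate of its own, so a p-value measures the spread between plates of 1 cell line.

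Of the 22936 genes tested, 156 (0.680%) were enriched and 1268 (5.53%) were depleted in IP, with a fold above 1.5 and an adjusted p under 0.05 by the quasi-likelihood test of edgeR, adjusted by the Benjamini-Hochberg method. The median gene stood at -0.17 on the log2 scale. The enriched genes included receptors and matrix proteins made from long, GC-rich mRNAs, and the depleted genes included mitochondrial transcripts, ribosomal protein mRNAs, splicing factors and zinc finger genes. Where the mean was at least 100 UMIs, no enriched gene changed by more than 1.13 on the log2 scale, while depleted genes reached -2.84. The division of calls between the directions rested on the scaling. With TMM factors the median gene rose by 0.17, and 505 genes were enriched and 425 depleted, so that 54.3% of calls were enriched against 11.0% with total UMIs. All 156 enriched genes stayed enriched under TMM. DESeq2, the tool of the study, kept 76 of them with total UMIs and 88 with median-of-ratios factors. The counts and medians of gene lists compare with 0.680% enriched, 5.53% depleted and -0.17 over all genes. With plates 5 and 6 alone the counts were 100 and 681, with 68 of the 156 kept, and with plates 3 and 4 alone they were 109 and 1343, with 73 kept.

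**Figure D1:**
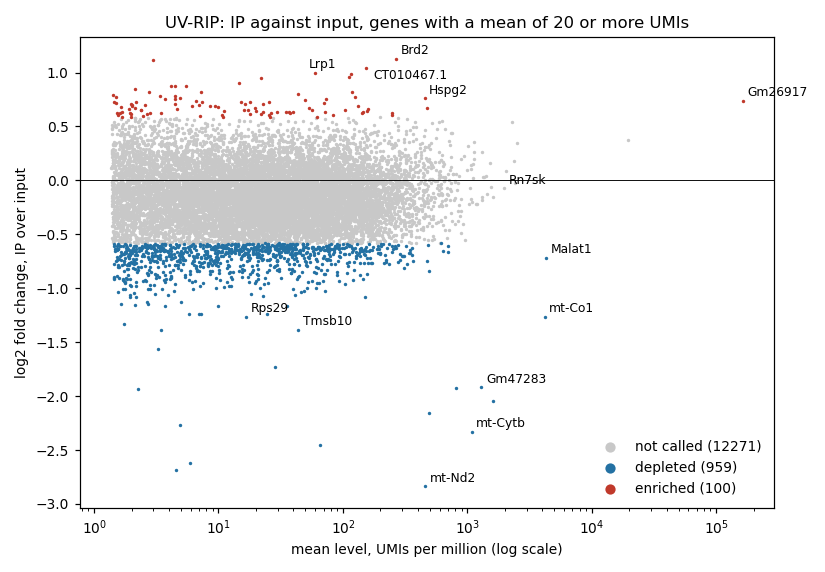
Log2 fold change of IP over input (vertical axis) against mean level in CPM, UMIs scaled to the same library total (horizontal log axis), for each gene with a mean of at least 20 UMIs, in red where enriched, in blue where depleted and in grey where not called. Enriched genes reached 1.13 (Brd2), and depleted genes reached -2.84 (mt-Nd2).

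Short stretches of coding sequence illustrate the base composition of a few genes gained and lost in IP; they were picked for this and are no test of it. Each is 60 bases of the mRNA strand, read 5′ to 3′ from the longest coding exon in GENCODE vM21 on GRCm38, with G and C in capitals. The first 3 come from enriched genes: Hspg2 (perlecan, chr4:137557277-137557336, plus strand), Lama5 (laminin alpha 5, chr2:180225616-180225675, minus strand) and Pkd1 (polycystin 1, chr17:24574400-24574459, plus strand). The next 3 come from depleted genes: mt-Nd2 (chrM:4401-4460, plus strand), the zinc finger gene Zfp979 (chr4:147613509-147613568, minus strand) and the Polycomb subunit Suz12 (chr11:80031986-80032045, plus strand). The last, Rps29 (chr12:69158680-69158739, minus strand), is a depleted mRNA that is short and not AT-rich.
Hspg2: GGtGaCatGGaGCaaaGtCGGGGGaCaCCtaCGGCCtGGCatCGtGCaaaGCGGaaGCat
Lama5: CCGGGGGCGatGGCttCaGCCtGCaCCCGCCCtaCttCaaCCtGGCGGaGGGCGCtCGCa
Pkd1: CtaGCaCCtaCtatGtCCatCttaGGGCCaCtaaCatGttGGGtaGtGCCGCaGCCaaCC
mt-Nd2: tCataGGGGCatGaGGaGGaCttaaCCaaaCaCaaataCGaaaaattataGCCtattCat
Zfp979: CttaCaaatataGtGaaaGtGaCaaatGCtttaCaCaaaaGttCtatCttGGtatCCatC
Suz12: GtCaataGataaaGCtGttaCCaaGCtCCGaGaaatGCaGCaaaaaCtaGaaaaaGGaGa
Rps29: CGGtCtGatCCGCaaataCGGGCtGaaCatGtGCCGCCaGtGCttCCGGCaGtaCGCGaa
Of the 60 bases, 36, 43 and 32 were G or C in the enriched genes, 22, 19 and 23 in the depleted ones, and 36 in Rps29. A stretch can differ from its transcript: Lama5 held 71.7% in the stretch and 59.9% over the whole transcript.

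The fold change followed GC content among 13317 genes that had a known transcript and averaged at least 20 UMIs, which were divided into 5 bins of equal size. In the bin of lowest GC content (30.96 to 43.76% of the longest transcript) the median was -0.38, with 1 gene enriched and 485 (18.2%) depleted. The medians of the next bins were -0.24, -0.16 and -0.07. In the bin of highest GC content (55.3 to 75.46%) the median was 0.03, and 69 genes (2.59%) were enriched and 54 (2.03%) depleted. Spearman's rho between fold change and GC content was 0.52 across these genes, which share libraries and are not independent replicates. Gene body length went the same way at its ends, with a smaller step. The bin of shortest genes (up to 8949 bases) had a median of -0.23 with 12 enriched and 380 depleted. The bin of longest genes (over 78400 bases) had -0.09 with 28 enriched and 78 depleted. The medians of the bins between them were -0.17, -0.19 and -0.16, without a steady rise. Both properties together gave a wider range. Among short genes of low GC content 0 of 984 were enriched and 292 depleted (median -0.44), and among long genes of high GC content 41 of 914 were enriched and 4 depleted (median 0.16). By level, the medians of the bins with the lowest and the highest mean UMIs were both -0.15, while the calls differed: 38 enriched and 289 depleted (10.8%) in the lowest bin, 18 and 136 (5.10%) in the highest. Removing the GC trend from the counts before the test left 103 enriched and 861 depleted genes, 78 and 670 of them called before. Whether library preparation or capture gave the trend was not tested.

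**Figure D2:**
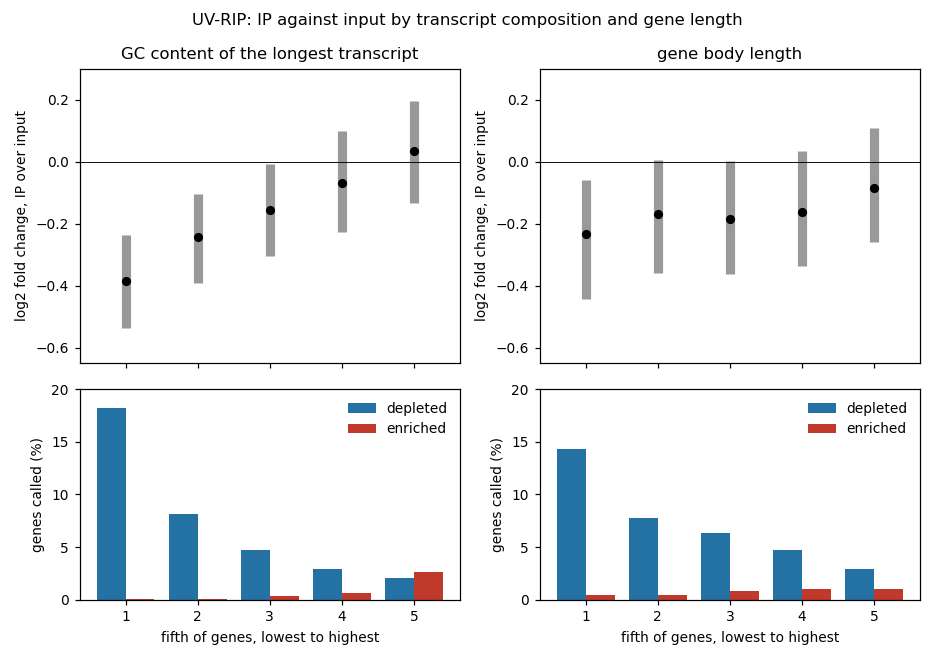
Upper panels: median (point) and middle 50% of genes (bar) of the log2 fold change of IP over input in 5 bins of genes by GC content (left) and gene body length (right). Lower panels: percent of genes in each bin that were enriched (red) or depleted (blue), where depleted genes fell from 18.2% to 2.03% from the lowest to the highest GC content.

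Among genes that averaged at least 100 UMIs, the 12 with the largest enrichment included genes of membrane receptors, matrix proteins and regulators, and the rRNA gene CT010467.1 (1.04), described with the transcript types. Brd2, a bromodomain protein that reads acetylated histones, had 424, 299, 356 and 386 CPM in the IPs of replicates 3 to 6 and 176, 159, 168 and 163 CPM in the inputs. The groups did not overlap, and the log2 fold change was 1.13 ± 0.04 (SE, n = 4 pairs, edgeR adjusted p = 1.60e-172). Brd2 was the sole gene called by edgeR with total UMIs of 26 bromodomain and acetylation genes (3.85%, against 0.680% of all genes), and 4 were enriched with TMM factors, where 2.2% of all genes were. Plxnb1 (1.00), Lrp1 (0.99), Pmepa1 (0.96) and Nbeal2 (0.95) were the next mRNAs, each with groups that did not overlap. Pkd1 had 156, 144, 149 and 154 CPM in IP and 83.9, 82.2, 86.1 and 88.7 CPM in input. It encodes a very large membrane protein of the primary cilium, and its log2 fold change was 0.82 ± 0.04 (edgeR adjusted p = 3.94e-77). Sbk1, a serine/threonine kinase gene, stood at 0.77 (IP 155 to 165 CPM, input 84.4 to 100 CPM). Foxo6, a forkhead transcription factor, was at 0.82 with low counts (IP 8.02 to 10.2 CPM, input 4.70 to 5.53 CPM). Sbk1 and Foxo6 fell under the fold threshold once the GC trend was removed, at 0.54 and 0.52.

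With total UMIs, enrichment among the listed categories was most frequent for genes of the cell surface and matrix. There 18 of 547 listed genes (3.29%, against 0.680% of all genes) were enriched and 13 (2.38%) depleted, with a median of -0.04. Solute carriers made up 328 of the 547, with 4 enriched (1.22%), 9 depleted and a median of -0.11. Of 29 integrins 0 were enriched and 1 depleted, and of 22 ephrins and Eph receptors 0 were called. With TMM factors 45 genes of the category (8.23%, against 2.2% of all genes) were enriched and 4 (0.731%) depleted. With the GC trend removed 6 were enriched (1.1%, against 0.449% of all genes) and 8 depleted (1.46%, against 3.75%). The enriched ones were 3 of the LDL receptor family and 1 each of the plexins, cadherins and collagens. The category then no longer ranked first, as 2 of 59 listed noncoding RNA genes (3.39%) were enriched. Among 60 collagen, laminin and basement membrane genes, 6 were enriched and 1 depleted, and the median was 0.17 (0.13 to 0.27 in the 4 pairs). Hspg2, the heparan sulfate proteoglycan of basement membranes, had 596, 572, 539 and 578 CPM in IP. Its inputs held 323, 337, 355 and 331 CPM, all below the lowest IP, and the log2 fold change was 0.76 ± 0.04 (edgeR adjusted p = 4.67e-87). Lama5, a chain of the laminins on which stem cells adhere, had 603, 575, 571 and 597 CPM in IP against 365, 367, 377 and 361 CPM in input, a log2 fold change of 0.67. The fibrillar collagen Col27a1 stood at 0.91, with 14.99 to 21.1 CPM in IP and 7.93 to 12.2 CPM in input. Col11a2, at only 2.03 to 2.62 CPM in IP, was enriched by 0.66 ± 0.20. The 10 primitive endoderm markers, which include the basement membrane genes Col4a1 and Lamb1, summed to 107 to 111 CPM in IP and 92.2 to 94.7 CPM in input. By the methods of the study an input was taken from the lysate of its IP. With the GC trend removed, 1 of the 60 genes was enriched, and Hspg2 stood at 0.53.

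The LDL receptor family, endocytic receptors with long extracellular repeats, had 3 of 14 members enriched and none depleted (median 0.18). Lrp1, the receptor for many ligands including proteases, had 173, 141, 145 and 161 CPM in IP and 78.8, 74.9, 82.5 and 75.6 CPM in input. Its IPs stood well above its inputs, with a log2 fold change of 0.99 ± 0.04 (edgeR adjusted p = 5.28e-110). Lrp4, which serves agrin at the neuromuscular junction, was enriched by 0.70, and Lrp2 (megalin), by 0.65. Lrp3 was at 0.57, under the fold threshold. With the GC trend removed, 3 members were enriched. Among 31 plexins and semaphorins, receptors and ligands of axon guidance, Plxnb1 and Plxnb2 were enriched and none was depleted (median 0.19). Plxnb2 had 162, 151, 173 and 173 CPM in IP and 100 to 105 CPM in input (0.69 ± 0.04). Plxna3, at 0.47, was not called, and 1 gene of the list was enriched with the GC trend removed.

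Of 41 cadherins and protocadherins, 2 were enriched and 2 depleted. The enriched members were Celsr3 and Celsr1, the seven-pass cadherins of planar cell polarity. Celsr3 had 55.4, 51.3, 57.6 and 57.7 CPM in IP and 30.4, 30.3, 32.4 and 34.1 CPM in input, without overlap, and a log2 fold change of 0.80 ± 0.05. Celsr1 was at 0.63, and Cdh10, a classical cadherin of low GC content (33.8%), at -0.74. With the length trend or the GC trend removed, 1 cadherin was enriched. Jag2, a Notch ligand, was the only called gene of 22 in the Notch pathway (0.71), Tcf7, a transcription factor of the Wnt pathway, of 32 (0.59) and Pmepa1, an inhibitor of TGF-β signalling, of 31. Tcf7 stood on the fold threshold, and no gene of the Wnt list was enriched without replicate 4, without replicate 5, in pairs 5 and 6 alone or with the length or GC trend removed. Of the Notch list, where 1 gene is 4.55%, no gene was enriched with the GC trend removed and 3 were with TMM factors. The giant E3 ubiquitin ligases had the highest median among the lists shown in the plot of list medians, at 0.23. Of these 14 genes, 11 were higher in IP at an adjusted p under 0.05 by edgeR and 3 were lower, where without a fold threshold 6.60% of all genes were higher and 29.0% lower. Herc2 alone passed the fold threshold (0.62), and Ubr4, Hectd4 and Rnf213 stood at 0.55, 0.51 and 0.50. No gene of the list was enriched without replicate 3 or with the length trend removed, and 5 were with TMM factors. Their transcripts held a median of 47.8% G and C, close to all genes, and a median gene body of 131 kb.

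**Figure D3:**
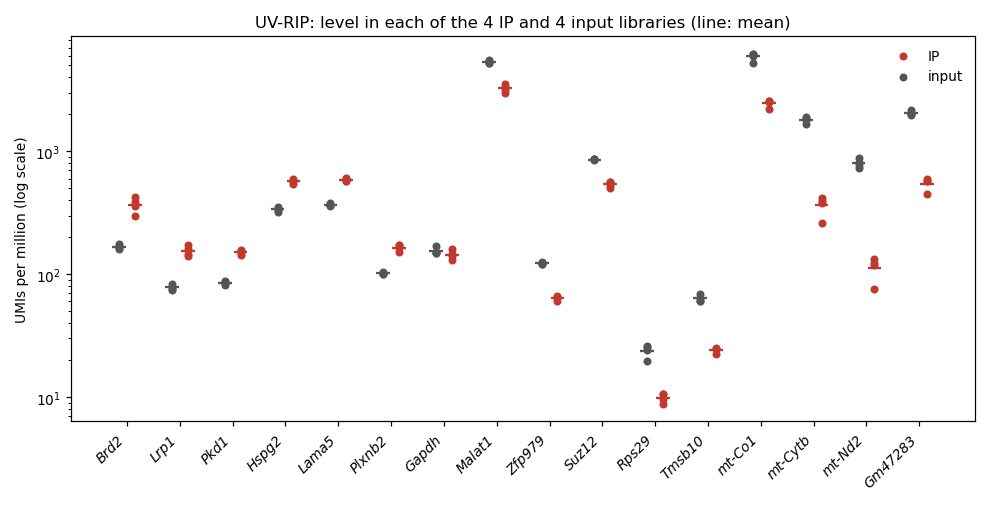
Level of 16 genes in CPM, UMIs scaled to the same library total (vertical log axis), in each of the 4 IP (red) and 4 input (grey) libraries, with a line at each mean. IP points lie above input points from Brd2 to Plxnb2, overlap them at Gapdh and lie below them from Malat1 to Gm47283.

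Among genes that averaged at least 100 UMIs, transcripts of the mitochondrial genome were 8 of the 12 most depleted. mt-Nd2, a subunit of respiratory complex I, had 75.6, 119, 124 and 134 CPM in IP and 777, 729, 878 and 815 CPM in input. The highest IP was under the lowest input by a wide margin, and the log2 fold change was -2.84 ± 0.04. mt-Cytb, of complex III, stood at -2.33 (IP 263 to 418 CPM, input 1670 to 1893 CPM), mt-Nd4 at -2.16, mt-Nd1 at -2.04 and mt-Nd5 at -1.92. mt-Co1, the catalytic subunit of complex IV, had 2215, 2553, 2555 and 2527 CPM in IP and 5984, 5282, 6231 and 6169 CPM in input, a smaller loss of -1.26. mt-Nd6, the only mRNA of the other strand, was the least depleted of the 7 called mRNAs at -1.08. Both mitochondrial rRNAs were depleted, mt-Rnr2 by -2.45 and mt-Rnr1 by -1.73, while 4 of 12 tested mitochondrial tRNAs were. Only 2 of the 12 tRNAs averaged at least 20 UMIs, and neither was called. DESeq2 called 0 of the tRNAs depleted with either scaling, so their calls are uncertain. Replicate 3 was the lowest IP for all the genes named in this paragraph. All mitochondrial genes together held 0.357, 0.439, 0.446 and 0.451% of UMIs in IP and 1.36, 1.24, 1.43 and 1.399% in input.

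Cytosolic ribosomal protein genes were depleted in large number. Of 86 tested, 39 (45.3%) were depleted and 0 enriched, and the median of -0.57 (-0.62 to -0.49 in the 4 pairs) compares with -0.17 over all genes. None of the 81 members that averaged at least 20 UMIs had a log2 fold change above 0. Rps29, a small zinc-binding subunit protein, had 8.79, 10.5, 9.62 and 10.5 CPM in IP and 25.5, 19.5, 24.0 and 26.0 CPM in input, which did not overlap, and a log2 fold change of -1.26 ± 0.08 (edgeR adjusted p = 1.13e-59). Rplp2, a protein of the ribosomal stalk, was at -1.02 (IP 44.1 to 48.4 CPM, input 94.9 to 96.3 CPM), and Rps27l at -1.24. Reads that map to more than 1 place were discarded by the study, and ribosomal protein genes have many processed pseudogenes, so their levels are uncertain. Removing the GC trend left 44 depleted genes in this list, with a median 0.43 below that of all genes instead of 0.40, and TMM factors left 18.

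Nuclear genes of the respiratory chain had 25 of 80 depleted (31.2%, against 5.53% of all genes) and 0 enriched (median -0.41). Ndufc1, of complex I, had 5.84, 6.58, 6.70 and 5.44 CPM in IP and 13.1, 12.6, 14.99 and 14.3 CPM in input (-1.17 ± 0.09), and Atp5k (-1.13), Cox7b (-1.01) and Atp5e (-0.90) belong to the ATP synthase and to complex IV. Of 75 mitochondrial ribosomal proteins 9 (12%) were depleted, led by Mrpl34 (-0.82) and Mrps18c (-0.80). Of 23 genes of the endoplasmic reticulum translocon 5 (21.7%) were depleted, led by Sec61g, the small subunit of the protein channel (-0.87). With TMM factors, where 1.85% of all genes were depleted, these lists had 13, 2 and 2 depleted genes. Tmsb10, a small actin-binding peptide, was the most depleted nuclear mRNA among the genes named by size, apart from Gm47283. It had 25.2, 22.3, 24.7 and 24.7 CPM in IP and 69.0, 59.9, 60.5 and 64.1 CPM in input, and its log2 fold change was -1.39 ± 0.05 (edgeR adjusted p = 9.90e-139). Its relative Tmsb4x was at -0.98. Polr2k, a small subunit shared by the RNA polymerases, stood at -1.39 ± 0.15 with 1.42 to 2.62 CPM in IP and 4.50 to 5.53 CPM in input.

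Of 200 listed RNA processing genes, 27 were depleted (13.5%, against 5.53% of all genes) and 0 enriched. With TMM factors 4 were depleted (2.0%, near the 1.85% of all genes), and with the GC trend removed 4 (against 3.75% of all genes). Of 23 SR splicing factors and CLK kinases 9 were depleted (39.1%) and 0 enriched (median -0.48). Srsf3, an SR protein of splicing and export, had 119, 121, 129 and 127 CPM in IP and 212, 201, 215 and 216 CPM in input (-0.77 ± 0.04). Pnn, a nuclear speckle protein, was at -0.997, and the kinase Clk1 at -0.76. Of 32 hnRNP genes 7 (21.9%) were depleted and 0 enriched, among them Hnrnpc, which binds uridine tracts, with 167, 170, 176 and 181 CPM in IP and 299, 293, 299 and 300 CPM in input (-0.78). Of 34 snRNP and LSm protein genes 5 (14.7%) were depleted, led by Lsm5 (-0.94). Transcripts of the SR and hnRNP lists held a median of 44.8% and 44.1% G and C, and with the GC trend removed 1 and 2 of their genes were depleted. Their medians then stood 0.25 and 0.15 below that of all genes, against 0.31 and 0.28 before.

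Zinc finger genes of the Zfp series, mostly KRAB repressors of repeats, had 60 of 346 depleted (17.3%) and 0 enriched (median -0.34). Zfp979 had 60.9, 64.8, 63.8 and 66.1 CPM in IP and 122, 123, 125 and 120 CPM in input, with no overlap, and a log2 fold change of -0.94 ± 0.05 (edgeR adjusted p = 3.52e-94). Zfp964, Zfp457 and Zfp711 stood at -1.06, -1.03 and -1.03, the first 2 with under 3.1 CPM in every library. Members of this family resemble one another, so reads between them may have been discarded. The list held a median of 43.9% G and C. With the GC trend removed 12 of the 346 genes were depleted, a share under the 3.75% of all genes. The median then stood 0.08 below that of all genes, against 0.17 before. With TMM factors 16 were depleted, where 1.85% of all genes were.

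Of 27 pluripotency genes, 4 were depleted (14.8%, against 5.53% of all genes) and 0 enriched, and the median of -0.19 was close to that of all genes. With TMM factors 2 were depleted, and likewise 2 with the GC trend removed, where 1.85% and 3.75% of all genes were. Zfp42 (Rex1), a marker of naive cells, had 38.8, 39.7, 45.8 and 41.4 CPM in IP and 73.7, 72.5, 77.2 and 75.9 CPM in input (-0.85), and Dppa4, a chromatin factor of early embryos, was at -0.78. Nanog and Pou5f1, the gene of Oct4, were looked up after the values were seen and stood at -0.51, under the fold threshold, and at -0.07 (edgeR adjusted p = 0.180). Of 26 Polycomb genes Suz12 alone was depleted (3.85%, under the 5.53% of all genes), with 531, 501, 567 and 564 CPM in IP and 858, 842, 858 and 863 CPM in input (-0.66 ± 0.04). Of 16 Sox family genes Sox11, a gene of neural progenitors, was depleted (-0.88), a share of 6.25% that is near that of all genes.

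Several groups showed no called gene by edgeR with total UMIs. This held for 17 glycolytic enzymes, 13 fatty acid synthesis genes, 24 genes of mTOR and insulin signalling and 21 tubulins, although TMM factors gave 1 enriched fatty acid synthesis gene and 2 enriched mTOR and insulin genes. Their medians were -0.02, -0.02, -0.02 and -0.01, between 0.15 and 0.16 above that of all genes. Gapdh, a glycolytic enzyme often used as a reference, had 160, 145, 130 and 140 CPM in IP and 170, 148, 150 and 151 CPM in input. Its groups overlapped, and its log2 fold change was -0.11 under the total UMI scaling and 0.075 with TMM factors. None of 19 cohesin and condensin genes was called by the same test, with a median of -0.31.

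**Figure D4:**
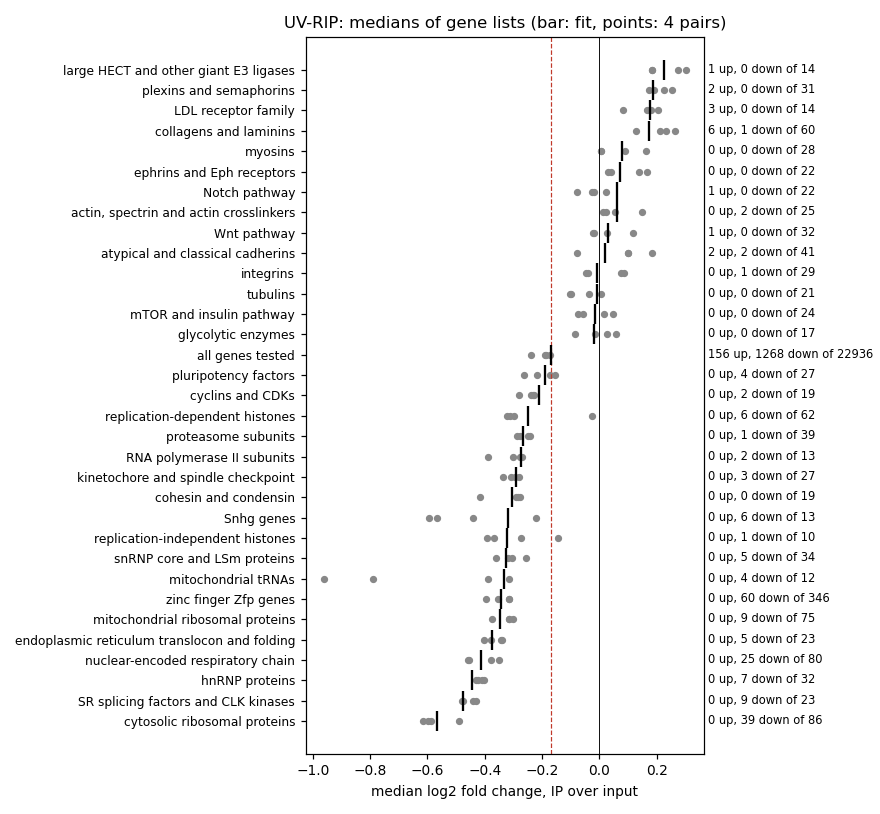
Median log2 fold change of IP over input (horizontal axis) of each gene list, from the fit (bar) and in each of the 4 pairs of IP and input (points), with the median of all genes tested as a dashed line and the numbers of enriched (up) and depleted (down) genes at the right. Ribosomal proteins lie at -0.57 and the giant E3 ligases at 0.23.

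By transcript type, protein-coding genes had 114 of 16162 enriched (0.705%) and 915 depleted (5.66%), close to the shares of all genes (median -0.16). Long intergenic RNAs (lincRNAs) had 5 of 1793 enriched and 107 depleted (5.97%, median -0.21), and the 5 became 10 without replicate 3 and 3 without replicate 5. With TMM factors 27 lincRNAs were enriched, where 2.2% of all genes were. Antisense RNAs had 19 of 1491 enriched (1.27%) and 63 depleted, with a median of -0.08. The enriched antisense RNAs numbered 10 without replicate 5, 5 in pairs 3 and 4 alone, 7 in pairs 5 and 6 alone, 2 with DESeq2 on total UMIs and 49 with TMM factors. The counts do not say whether strand was used, so reads of an antisense gene and of its partner cannot be told apart. All pseudogenes had 5 of 2100 enriched and 79 depleted (median -0.23). Transcripts from bidirectional promoters had 14 of 116 depleted (12.1%) and none enriched, with a median of -0.24, and 33 of the 116 averaged at least 20 UMIs. DESeq2 with total UMIs called 4 of them depleted, where 3.8% of all genes were, and 2 with median-of-ratios factors. With TMM factors 8 were depleted, where 1.85% of all genes were.

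Counted in molecules, Gm26917 and Gm42418 held a large part of every library. These 2 lincRNA genes, singled out after their values were seen, lie at chr17:39843013-39846341 and chr17:39846958-39848788 (GRCm38, plus strand). RefSeq lists Gm42418 as a synonym of an 18S rRNA-related sequence, and the gene CT010467.1, annotated as rRNA, overlaps it on the minus strand. Together they held 24.0, 24.7, 21.4 and 20.5% of all UMIs in IP and 13.97, 13.98, 14.02 and 13.67% in input, higher in 4 of 4 pairs. Gm26917 was enriched by 0.74, Gm42418 stood at 0.37, and CT010467.1 was enriched by 1.04 ± 0.04 (IP 170 to 239 CPM, input 92.7 to 108 CPM). The nuclear protein-coding genes took 74.6% ± 1.94 (SD, n = 4) of UMIs in IP and 81.9% ± 0.161 in input, lower in all 4 pairs. A share can fall because another grows, and without the 2 genes in the total the protein-coding share was 1.26 percentage points higher in IP. For these shares the exact two-sided sign-flip test over 4 pairs gave p = 0.125, the smallest value 4 pairs allow (adjusted 0.161 over the 9 shares tested).

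Of 58 small nuclear RNAs, 7 were depleted and 1 enriched. Their median was -1.26 in the fit but -0.56 to -0.19 in the 4 pairs taken singly, and only 3 of the 58 averaged at least 20 UMIs, so the median of the type is uncertain. DESeq2 called 3 of them depleted. Among those with the largest losses were copies of U2, the snRNA that pairs with the branch point. Gm25360 (chr1:72226240-72226430), Gm26316 (chr11:101604850-101605040) and Gm22973 (chr12:59040335-59040525), all on the plus strand of GRCm38, are shown with capitals where a copy differs from Gm25360. Gm26316 was chosen after its values were seen.
Gm25360: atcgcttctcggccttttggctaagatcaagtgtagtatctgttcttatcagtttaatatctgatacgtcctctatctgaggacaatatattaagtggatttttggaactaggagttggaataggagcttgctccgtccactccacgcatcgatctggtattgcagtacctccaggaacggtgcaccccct
Gm26316: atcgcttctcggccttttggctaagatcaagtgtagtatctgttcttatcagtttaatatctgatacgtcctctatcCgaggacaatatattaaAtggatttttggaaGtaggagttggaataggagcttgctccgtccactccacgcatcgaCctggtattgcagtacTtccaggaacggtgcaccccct
Gm22973: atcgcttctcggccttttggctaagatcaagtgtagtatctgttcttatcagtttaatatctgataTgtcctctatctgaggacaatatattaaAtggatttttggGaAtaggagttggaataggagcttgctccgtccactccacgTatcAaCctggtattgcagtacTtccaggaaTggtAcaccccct
The copies are 191 bases long, and 186 and 181 of them match Gm25360, so only reads across a difference map to 1 copy and the counts are a part of the U2 in the libraries. Gm25360 had 7, 22, 27 and 22 UMIs in IP and 83, 89, 120 and 123 UMIs in input, a log2 fold change of -2.68 ± 0.15 (edgeR adjusted p = 2.98e-69). Gm22973 had 14, 36, 18 and 35 UMIs in IP and 124, 98, 143 and 161 UMIs in input (-2.62), and Gm26316 had 3 to 15 UMIs in IP and 17 to 33 UMIs in input (-1.31). Rnu12, the U12 snRNA of the minor spliceosome, was depleted by -1.94. In none of these 4 snRNAs did IP and input overlap. The 7SK RNA Rn7sk, which holds the elongation factor P-TEFb inactive, was at -0.07 (edgeR adjusted p = 0.0978) and was not called.

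The miR-290 cluster, the most abundant microRNA locus of mESCs, was depleted at 6 of its 7 precursors. They were among 10 depleted (7.19%, against 5.53% of all genes) and 1 enriched of 139 tested microRNA genes. With TMM factors 6 of the 139 were depleted, where 1.85% of all genes were. DESeq2 with median-of-ratios factors called 4 depleted, and 9 were with the GC trend removed. These counts by setting were not split by precursor. The libraries did not select small RNAs, so the UMIs of the precursors may be fragments of the primary transcript, which was not tested. In that case the 6 calls are not independent of one another. The 3p arms of 6 members are given from RefSeq (GRCm38.p6, chr7:3218639-3220837, plus strand) with the seed, bases 2 to 8, in capitals.
mmu-miR-290a-3p: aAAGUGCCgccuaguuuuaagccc
mmu-miR-291a-3p: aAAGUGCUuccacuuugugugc
mmu-miR-291b-3p: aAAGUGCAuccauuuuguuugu
mmu-miR-293-3p: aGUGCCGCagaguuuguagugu
mmu-miR-294-3p: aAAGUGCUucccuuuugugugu
mmu-miR-295-3p: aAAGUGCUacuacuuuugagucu
The seed AAGUGCU is shared by miR-291a, miR-294 and miR-295, miR-290a and miR-291b differ from it in the last base, and miR-293 has another. Mir290a had 61, 56, 78 and 72 UMIs in IP and 78, 89, 122 and 106 UMIs in input, and Mir291a had 28, 32, 40 and 46 against 56, 37, 70 and 62. The raw counts of IP and input met or overlapped in both, but IP was the deeper library in each pair, and the log2 fold changes were -0.84 ± 0.12 and -0.90 ± 0.15. Mir292 (-0.83), Mir295 (-0.69), Mir291b (-0.67) and Mir293 (-0.67) were also depleted, and Mir294 (-0.41, edgeR adjusted p = 0.00718) did not reach the fold threshold. Mir291a and Mir294, whose 3p arms share the seed, stood at -0.90 and -0.41, and the difference between them was not tested.

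Among the long non-coding RNAs, Malat1, a nuclear speckle RNA, had 2998, 3173, 3510 and 3364 CPM in IP and 5189, 5544, 5422 and 5272 CPM in input. The groups did not overlap, and the log2 fold change was -0.72 ± 0.03 (edgeR adjusted p = 1.21e-99), or -0.54 with TMM factors and also with the GC trend removed, which is under the fold threshold. Among lincRNAs that averaged at least 20 UMIs, Bc1, a cytoplasmic RNA of neurons, fell furthest, with 0.914 to 2.62 CPM in IP and 7.72 to 8.75 CPM in input (-2.26). Of 13 small nucleolar RNA host genes 6 were depleted (46.2%, against 5.53% of all genes) and 0 enriched, led by Snhg14 (-0.91), Snhg11 (-0.85) and Snhg1 (-0.78). With TMM factors 3 of them were depleted, with the length trend removed 4, and with the GC trend removed 1. The median minus that of all genes was -0.15, and it was -0.05 and -0.26 with the length and GC trends removed. Of 6 other snoRNA host RNAs 1 was depleted, Gas5, a host gene of the growth arrest response, while Zfas1 stood at -0.36. Gas5 had 98.4, 104, 104 and 100 CPM in IP and 186, 182, 192 and 205 CPM in input (-0.91).

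The sex chromosomes stood below the autosomes. On the X chromosome 68 of 420 genes that averaged at least 20 UMIs (16.2%) were depleted and 1 enriched, against 7.19% and 0.750% of all genes at that level, with a median of -0.34 and a median GC content of 45.4%, the lowest of the nuclear chromosomes other than Y. On the Y chromosome 5 of 8 genes at that level were depleted, including Zfy1 (-0.64) and Eif2s3y (-0.59), named after their values were seen. Both stood near the fold threshold. Eif2s3x, the counterpart of Eif2s3y on the X chromosome, stood at -0.57 and was not called. The counts by chromosome were made with total UMIs alone and without removing the GC trend. Gm47283 (chrY:90784738-90816464) had 452, 568, 592 and 569 CPM in IP and 1988, 2167, 2005 and 2055 CPM in input, a log2 fold change of -1.92 ± 0.04. It lies at the end of the chromosome, where X and Y share sequence, so its count is uncertain. Its transcript holds 69.4% G and C, so its loss ran against the trend with GC content.

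The same contrast with formaldehyde used other plates and its own inputs, so crosslinker and plates cannot be told apart. The ratio of IP to input differed between the assays for many genes, being higher in UV-RIP for 1852 (8.07%) and lower for 4264 (18.6%) of all 22936, where the median difference was -0.15. By the interaction test, 8 of the 156 enriched genes had a higher ratio in UV-RIP, 32 a lower one, and 116 did not pass. Of the 1268 depleted genes, 142 were higher, 310 lower and 816 not past the test. In fRIP on its own, 103 of the 156 were enriched, where 9.06% of all genes were, and 543 of the 1268 depleted, where 10.9% of all genes were.

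Many mitochondrial, ribosomal protein and histone transcripts had higher ratios under UV than under formaldehyde. Of the mitochondrial genes, 6 of 8 mRNAs, both rRNAs and 3 of 12 tRNAs passed the interaction test, all with the higher ratio in UV-RIP. The difference of mt-Nd2 (0.40, edgeR adjusted p = 0.118) did not pass. The ratio of mt-Nd6 fell by 1.08 with UV and by 2.56 with formaldehyde, a difference of 1.48 ± 0.16 (SE, edgeR adjusted p = 1.41e-07). mt-Rnr1, mt-Rnr2 and mt-Co1 differed by 1.505, 1.27 and 0.99 in the same direction. Of 86 ribosomal protein genes 54 had a higher ratio in UV-RIP and 0 a lower one (medians -0.57 and -0.99). Of 62 replication-dependent histone genes, whose mRNAs lack a poly(A) tail, 50 were higher in UV-RIP and 0 lower, with medians of -0.25 and -1.23. Chaperones went the same way, with 19 of 20 higher. Zinc finger genes had 11 of 346 higher and 79 lower in UV-RIP, where 8.07% and 18.6% of all genes were.

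Among the gained genes the assays ranked members differently. Lrp2 was enriched by 0.65 under UV and stood at 0.01 under formaldehyde (difference 0.63 ± 0.10, edgeR adjusted p = 1.62e-05). Plxnb2, Lrp1 and Hspg2 were also higher under UV, by 0.38, 0.31 and 0.26. Pmepa1 was enriched in both and less so under UV (0.96 and 1.85), and Brd2 differed by 0.07, which did not pass the test. Macrod1, an ADP-ribosyl hydrolase, stood at 0.61 under UV and at 1.75 under formaldehyde. Its call under UV was lost without replicate 5 and with the length (0.515) or GC trend (0.35) removed. It had 25.5, 26.2, 39.4 and 33.0 CPM in IP, 18.6 to 22.5 CPM in input, and a log2 fold change of 0.53 without replicate 5. Pkia, an inhibitor of protein kinase A, and Gm37795 were depleted under UV (-0.68 and -0.64) and stood at 0.48 and 0.44 under formaldehyde, although neither remained depleted with TMM factors (-0.50 and -0.46). Pkia stood at -0.41 with the GC trend removed. Gm37795 was also at -0.58 without replicate 5, just under the threshold. The unnamed gene ENSMUSG00000093514.3 differed by -1.02 and stood at -0.56 without replicate 3 and at -0.44 with TMM factors, likewise under the threshold.

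**Figure D5:**
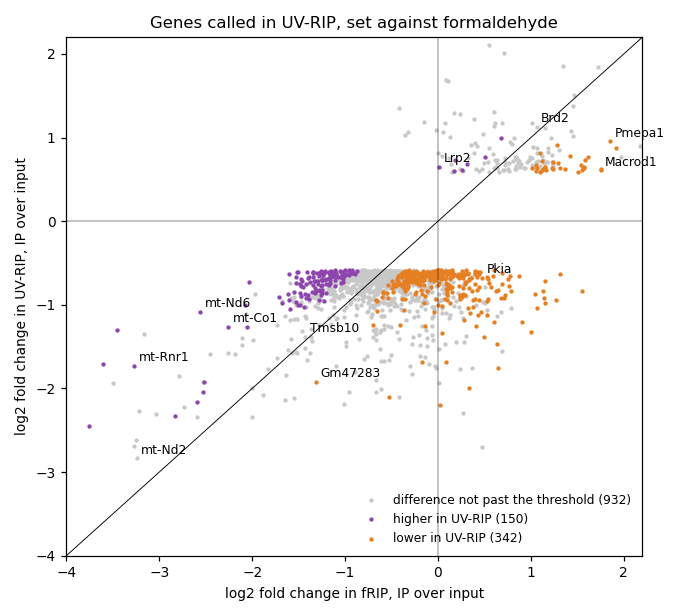
Log2 fold change of IP over input under UV (vertical axis) against that under formaldehyde (horizontal axis) for the genes called in UV-RIP, in purple where the ratio was higher in UV-RIP, in orange where lower and in grey where the difference did not pass the test, with a line of equal values. Mitochondrial transcripts such as mt-Nd6 (-1.08 and -2.56) lie above the line, and Pmepa1 (0.96 and 1.85) lies below it.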

How the data were processed

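RNA from mESCs was measured in 4 UV-RIP IPs, 4 UV-RIP inputs and 8 fRIP libraries, rRNA-depleted with UMI adaptors. Mapping was by STAR to mm10 (GRCm38). The authors discarded reads without a unique place and deposited raw UMI counts per gene body from featureCounts with GENCODE vM16. Tool versions and the strand setting are not given in the sources used here. Other tools and another annotation would move genes with near-identical copies and overlapping genes. Gene types, GC content and coordinates were taken from GENCODE vM21, where 50604 of 53379 genes matched with their version, 2670 by number alone (no coordinates printed) and 105 not at all. No column was left over from another series (0).

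Groups came from the labels. Any gene that reached 3 UMIs in 1 library of the 16 was tested with edgeR 4.0.16 (R 4.3.3, quasi-likelihood), with total UMIs as library size and the plate as block. The study's methods used the same terms in DESeq2. Called genes had a fold above 1.5 and an adjusted p under 0.05. An IP and the input of the same number were taken to come from the same lysate. The correlation of their deviations from the group means was 0.28, 0.21, 0.46 and 0.04 over 9926 genes. Correlations between unmatched numbers were not compared, so these values do not check the pairing. UV-RIP and fRIP were compared by an interaction term over 16 libraries.

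Named genes were the references Malat1, Gapdh and Sox2, the genes the study labels, the 12 largest called changes each way with a mean of 100 or more UMIs, 5 each way with 1000 or more, up to 4 members of each list, and the 4 largest differences between assays each way. The members and gene lists were chosen with earlier results of these data known. Alternatives were TMM factors, totals without Gm26917 and Gm42418, DESeq2 1.42.0, other count filters, no replicate block, GC and length trends removed, each replicate left out and other fold rules, and pairs 3 and 4 or 5 and 6 alone, added after seeing the data. Depths of 12456298 to 17281596 UMIs leave genes near the count filter with wide errors.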

Additional observations from a re-analysis of the deposited data

Results flagged for a closer look

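Of 114 groups of 4 values examined in UV-RIP, 8 held 1 value far from the other 3 by Dixon's test, where chance gives about 1 in 20 groups. The share of UMIs on mitochondrial genes was 0.357% in IP replicate 3 and 0.439 to 0.451% in the others. The share on Gm26917 and Gm42418 was 13.7% in input replicate 6 and 13.97 to 14.02% in the others. Replicate 4 stood apart in the median log2 ratio of IP to input of replication-dependent histones (-0.0248, others -0.32 to -0.30), of cohesin and condensin (-0.42, others -0.29 to -0.28) and of the vacuolar ATPase and lysosome (-0.0567, others -0.17 to -0.16). Replicate 5 stood apart for aminoacyl-tRNA synthetases (-0.15, others -0.10 to -0.09) and the tricarboxylic acid cycle (-0.20, others -0.12 to -0.11), and replicate 6 for the DNA damage response (-0.10, others -0.19 to -0.18).

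The log2 ratio of IP to input differed between the assays, by the interaction test, for 24 of the references, the genes with the largest changes and the receptors Lrp2 and Plxnb2. Other genes named from the lists also passed it. It was higher in UV-RIP for mt-Rnr1 (1.505), mt-Nd6 (1.48), mt-Rnr2 (1.27), mt-Co1 (0.99), Rps29 (0.79), Lrp2 (0.63), mt-Nd5 (0.59), mt-Cytb (0.50), mt-Nd1 (0.49), Gapdh (0.48), mt-Nd4 (0.43), Plxnb2 (0.38), Lrp1 (0.31) and Hspg2 (0.26). It was lower in UV-RIP for Pkia (-1.15), Macrod1 (-1.15), Gm37795 (-1.08), ENSMUSG00000093514.3 (-1.02), Pmepa1 (-0.90), Gm47283 (-0.61), ENSMUSG00000109836.1 (-0.55), Col27a1 (-0.37), Pkd1 (-0.28) and Malat1 (-0.22). Crosslinker and plates cannot be told apart in these differences.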

How the results depend on the processing

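The main counts were 156 enriched and 1268 depleted genes. Scaling moved both: TMM factors gave 505 and 425, totals without Gm26917 and Gm42418 gave 419 and 505, and DESeq2 with median-of-ratios factors gave 289 and 233, as the median gene rose by 0.17, 0.15 and 0.17 on the log2 scale. Enriched genes were 54.3%, 45.3% and 55.4% of the calls against 11.0%. DESeq2 with total UMIs gave 76 enriched genes, the GC trend removed 103, pairs 5 and 6 alone 100 (681 depleted), no fold threshold 1514 and 6640, and testing the fold itself 17 and 200. Without the replicate block the counts were 157 and 1280, and 143 and 1224 of the genes called with it were kept. Leaving out each replicate gave 138 to 185 enriched and 1115 to 1325 depleted genes, 19 to 23 classes with a median at least 0.1 above that of all genes and 17 to 20 at least as far below, and 4451 to 5989 genes that differed between the assays; with the GC trend removed the higher classes were 11.

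IP minus input in percentage points, with each replicate left out, was 8.05 to 9.36 for Gm26917 and Gm42418, -7.94 to -6.62 for protein-coding genes, -0.980 to -0.911 for mitochondrial genes, -0.322 to -0.285 for other lincRNAs, -0.0785 to -0.0685 for processed transcripts, -0.0631 to -0.0568 for pseudogenes, -0.0168 to -0.00198 for antisense RNA, -0.0263 to 0.00416 for miscellaneous RNA and -0.00242 to -0.00213 for snRNA. With totals without the 2 genes, protein-coding (1.26), antisense (0.0361) and miscellaneous RNA (0.0165) turned positive, and miscellaneous RNA did without replicate 5 (0.00416). Medians minus that of all genes changed sign for mitochondrial tRNAs with the length (0.074) or GC trend (0.083) removed, for cohesin and condensin with the GC trend removed (0.002), and for microRNA genes with the strict count filter (-0.50), without replicate 5 (-0.061, range -0.061 to 0.197 over the replicates left out) and in pairs 3 and 4 alone (-0.001). Gapdh was at 0.075, 0.047 and 0.066 under the 3 scalings. The cause was not tested for these. Depth limits genes with few UMIs: 100 of the 156 enriched genes had a mean of at least 20.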
